A study of Mus musculus with 4 samples.

Results

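The genes described here build the DNA replication machinery and supply its nucleotides. They were chosen by name, 48 genes in all, with earlier results of these data known. Of these, 46 were measured by a probe set of their own among the 22180 genes of the array. Rfc4 and Ccne2 were not used, because each shares its probe set with a second gene (Eif4a2 and Ints8). The RNA came from N9 cells, an immortalised mouse microglial line kept in DMEM with serum. The arrays comprised 1 from cells given 10 µM nimodipine, 1 from cells given 20 µM nimodipine and 2 from cells given vehicle. Nimodipine is a dihydropyridine that blocks L-type calcium channels, and the series title asks about dihydropyridines in microglia. All arrays came from the same line, each dose had a single array, the length of exposure is not given in the sources used here, and nothing says that the vehicle arrays came from separate cultures.

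Before S phase, the origin recognition complex with Cdc6 and Cdt1 loads the MCM helicase, a ring of the subunits Mcm2 to Mcm7, onto DNA. Cdc45 and the GINS complex then turn the ring into a moving helicase, polymerases alpha, delta and epsilon copy the strands, and the clamp PCNA, set in place by the RFC clamp loader, holds the polymerases on the template. Deoxynucleotides come from ribonucleotide reductase, thymidylate synthase and thymidine kinase. Many of these genes are switched on at the G1/S boundary by E2F transcription factors, and in cultures of microglial lines they are commonly read as signs of proliferation.

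Values are log2 expression, and a difference is an array's value minus the mean of the vehicle arrays. The mean of each of the 46 members was above 5.04, the median over all probe sets and arrays. Of 11 measured microglia and macrophage markers, 9 lay above that median on every array (list median 8.63 at 10 µM, 8.99 at 20 µM, 9.19 and 9.06 in the vehicle arrays), while the homeostatic markers Tmem119 and P2ry12 lay below it on every array (4.57 to 4.79 and 4.34 to 4.82). Of the markers of other cell types, 2 of 5 astrocyte, 2 of 5 neuronal, 3 of 4 oligodendrocyte and 2 of 7 fibroblast and endothelial genes lay above it on every array. Their median levels were 4.38, 4.93, 5.52 and 5.17 at 10 µM, 4.32, 4.91, 5.64 and 4.92 at 20 µM, and 4.48 and 4.60, 4.97 and 5.09, 5.63 and 5.54, and 5.04 and 4.74 in the vehicle arrays. Their part in the results was not tested.

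The promoters of the MCM ring are shown because its subunits lay on opposite sides of vehicle at 10 µM. The sequences are the 200 bases before the annotated start, 5′ to 3′ on the gene's strand, from RefSeq on GRCm38.p6. They lie at chr6:88898781-88898980 (minus strand) for Mcm2, chr8:75109309-75109508 (plus strand) for Mcm5, chr1:128359706-128359905 (minus strand) for Mcm6 and chr5:138171884-138172083 (minus strand) for Mcm7. Capitals mark E2F words.
Mcm2: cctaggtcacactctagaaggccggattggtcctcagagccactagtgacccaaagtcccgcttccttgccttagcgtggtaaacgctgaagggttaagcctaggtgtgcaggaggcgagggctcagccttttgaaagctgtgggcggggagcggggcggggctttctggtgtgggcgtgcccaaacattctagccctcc
Mcm5: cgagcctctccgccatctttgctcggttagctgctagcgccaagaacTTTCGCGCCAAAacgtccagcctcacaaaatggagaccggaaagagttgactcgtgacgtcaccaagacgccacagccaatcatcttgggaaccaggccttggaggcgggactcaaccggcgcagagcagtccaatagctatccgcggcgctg
Mcm6: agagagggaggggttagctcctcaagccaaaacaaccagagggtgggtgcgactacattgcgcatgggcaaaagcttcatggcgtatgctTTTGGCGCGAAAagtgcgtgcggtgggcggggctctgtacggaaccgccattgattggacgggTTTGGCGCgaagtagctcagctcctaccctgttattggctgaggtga
Mcm7: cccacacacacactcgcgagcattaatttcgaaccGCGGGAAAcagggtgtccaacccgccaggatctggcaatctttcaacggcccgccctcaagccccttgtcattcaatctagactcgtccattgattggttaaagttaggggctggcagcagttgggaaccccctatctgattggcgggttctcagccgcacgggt
The words searched on both strands were TTTCCCGC, TTTCGCGC, TTTGCCGC and TTTGGCGC, in a window of 250 bases before to 50 after each start. In Mcm5 a pair of overlapping words began at positions -153 and -149, counted back from the start. In Mcm6 an overlapping pair began at -110 and -106 and another word at -47. In Mcm7 a word began at -165 and a second lay past the start, as did both words of Mcm3. None of these words stood in the Mcm2 window, and a promoter of Mcm4 was not used here.

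Promoters were matched for 39 of the 48 genes, and 14 of them (35.9%) held an E2F word, beside 2.60% of 27025 genes with a promoter. Besides Mcm3, Mcm5, Mcm6 and Mcm7 these were Orc1, Cdc6, Cdt1, Gins3, Pola1, Pold1, Pole2, Rfc3, Lig1 and Uhrf1. The CHR words TTTGAA and TTCGAA, typical of promoters of G2/M genes, stood in 7 of 39 (17.9%), beside 21.7% of all genes. These 7 were Mcm2, Mcm7, Cdc45, Gins3, Pold2, Rfc3 and Fen1. Of the G2/M and mitosis genes, 17 of 23 (73.9%) held a CHR word and 1 of 23 (4.35%) an E2F word. CCAAT stood in 24 of 39 (61.5%), beside 41.1% of all genes and 17 of 23 (73.9%) G2/M and mitosis genes. The 14 measured members with an E2F word had a median difference of -0.32 at 10 µM, with 11 lower, and the 24 measured members without one a median of -0.13, with 17 lower. At 20 µM the medians were 0.06 and -0.05. Mcm2, Orc2 and Tyms, the 3 members furthest above vehicle at 10 µM, held no word, as was the case for most members in this split. Pola1 (0.26), Orc1 (0.24) and Rfc3 (0.07) held a word and were higher at 10 µM as well. A relation between the words and the differences was not tested. Only exact words in that window were searched, so a member without a word was not shown to lack an E2F site.

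As a group the replication genes lay slightly below vehicle at 10 µM and close to it at 20 µM, and no member passed a test. At 10 µM 34 of 46 members (73.9%) were lower than the vehicle mean, beside 47.6% of all genes and 51.7% of those with a mean of at least 5.04, with a median difference of -0.17 against 0.01 for all genes. At 20 µM 25 of 46 (54.3%) were lower, beside 50.7% of all genes, with a median of -0.03. Against vehicle 1 alone the 10 µM median was -0.11 (29 lower), and against vehicle 2 alone it was -0.22 (35 lower). At 20 µM the choice of vehicle array turned the direction, with a median of 0.04 against vehicle 1 (15 lower) and -0.08 against vehicle 2 (34 lower). The vehicle arrays themselves differed in these genes, since 39 of 46 (84.8%) were higher in vehicle 2 than in vehicle 1, beside 49.8% of all genes, with a median difference of 0.13. None of the 46 differed 1.5-fold between the vehicle arrays, where 1.9% of all genes did. In RNA from whole cultures, fewer cells in S phase and less RNA per cell cannot be told apart.

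A log2 difference of 1 was reached by 0 members at 10 µM, beside 1.57% of all genes (1.06% lower and 0.514% higher), and by 0 members at 20 µM, beside 0.0857%. Against vehicle 1 alone, Mcm2 reached 1.11 at 10 µM. Between the doses no member differed by 1 or more, beside 1.64% of all genes. At the smaller size of 1.5-fold, 4 members (8.70%) were lower at 10 µM, beside 4.37% of all genes, and they were Mcm7, Pola2, Mcm5 and Lig1. Among the 12764 genes whose mean reaches 5.04, as that of every measured member does, 7.04% were lower by that much, close to the share of the members. Mcm2 was the single member higher by that much (2.17%, beside 2.39%). At 20 µM no member reached 1.5-fold, where 1.23% of all genes did. The 10 µM array lay below both vehicle arrays for 29 members (63.0%), beside 35.4% of all genes, and above both for 11 (23.9%), beside 39.1%. Among those 12764 genes the shares at 10 µM were 42.1% below both and 37.7% above both. The 20 µM array lay below both for 14 (30.4%), beside 35.1%, and above both for 11 (23.9%), beside 34.5%.

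With both nimodipine arrays set against both vehicle arrays, limma called 0 of 46 members and 0% of all genes at an adjusted p of 0.05. At an unadjusted p under 0.05 there was 1 member, Gins1, beside 5.37% of all genes, and eBayes with a trend or robust also called 0. A limma fit of 3 groups, in which a lone array is assumed to vary like the vehicle pair (residual df 1), called 0 members at 10 µM, beside 1.59% of all genes. At an unadjusted p under 0.05 it held 15 of 46 members at 10 µM, beside 16.9% of all genes. The smallest adjusted p of the members at 10 µM were 0.0818 for Pola2 and 0.0879 for Mcm2. That fit called 0 members and 0% of all genes at 20 µM, and at an unadjusted p under 0.05 it held 3 of 46, beside 6.39% of all genes. It called 0 members between the doses, beside 0.316% of all genes, and at an unadjusted p under 0.05 it held 12 of 46, beside 13.7% of all genes.

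**Figure D1:**
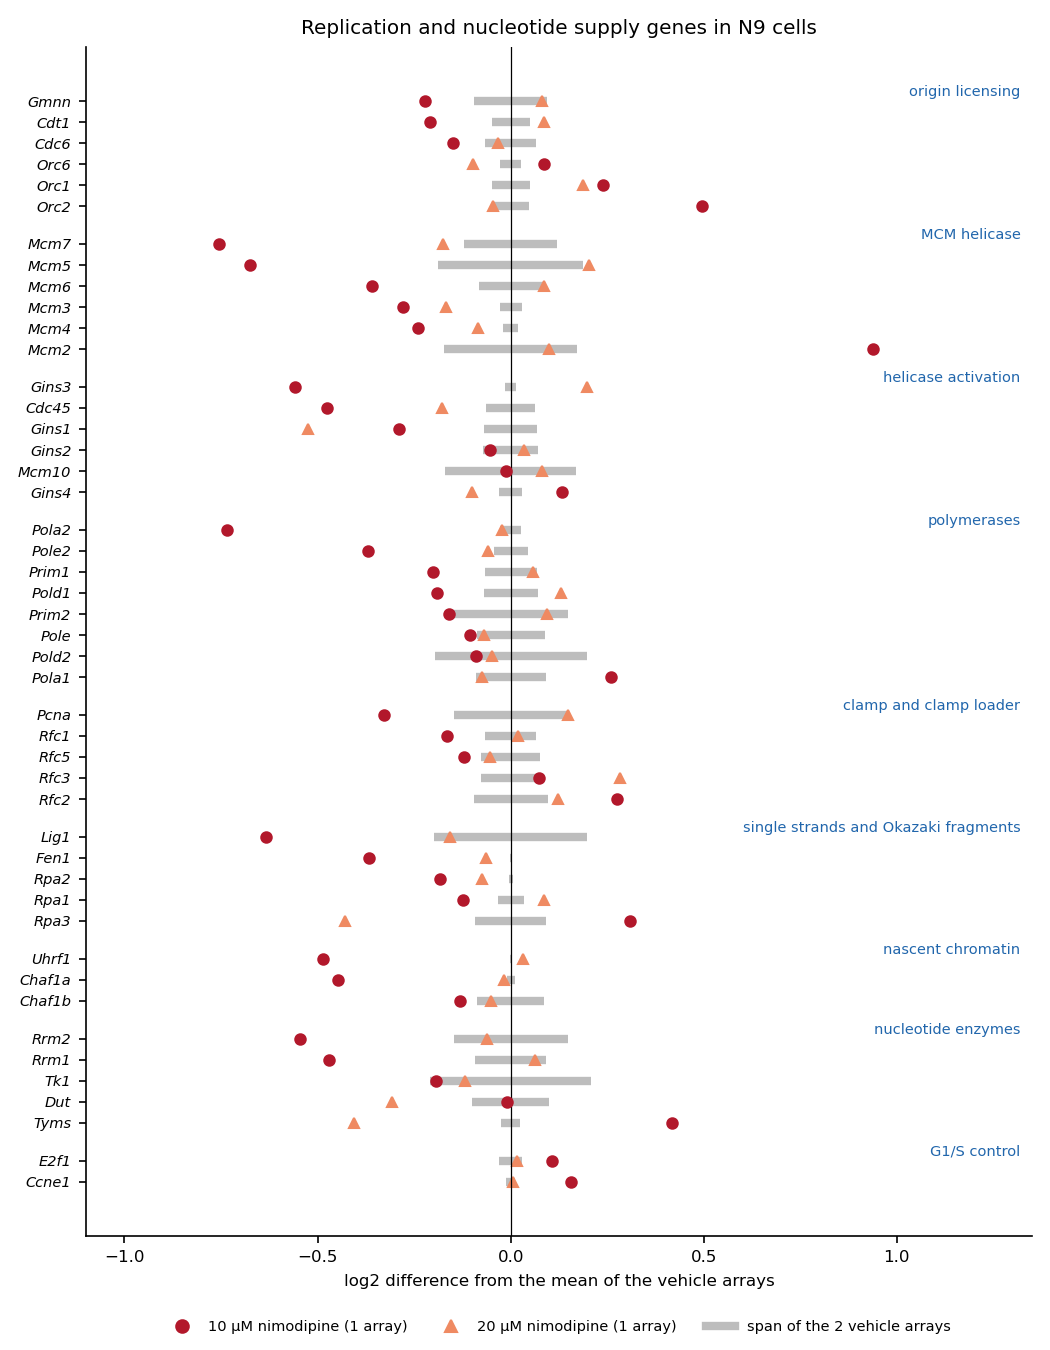
Log2 expression relative to the vehicle mean (x axis) for each of the 46 members (rows), grouped by role, at 10 µM nimodipine (red circles, 1 array) and 20 µM nimodipine (orange triangles, 1 array). Grey bars span the vehicle arrays; the circles run from -0.76 for Mcm7 to 0.94 for Mcm2, and the triangles stay between -0.52 and 0.28.

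The licensing members divided at 10 µM. The 3 origin recognition subunits among them were above both vehicle arrays, and Cdc6, Cdt1 and Gmnn below both. Orc2, a subunit of the origin recognition complex, stood at 8.52 at 10 µM and 7.98 at 20 µM, against 7.98 and 8.08 in the vehicle arrays. Its 10 µM value was 1.41-fold above the vehicle mean, and its 20 µM value lay between the vehicle values. Orc1, the large ATPase subunit, stood at 6.53 at 10 µM and 6.48 at 20 µM, against 6.34 and 6.24 in the vehicle arrays. It was above both at either dose, by 0.24 and 0.19. Orc6, the smallest subunit, differed by 0.09 and -0.10. Of the subunits outside the member list, Orc4 lay above both vehicle arrays at 10 µM (0.30) and Orc5 below both (-0.455). Orc3 lay inside its vehicle span, so the complex as a whole showed no shared direction. Gmnn, which encodes geminin, the inhibitor of Cdt1, stood at 6.53 at 10 µM and 6.84 at 20 µM, against 6.66 and 6.85 in the vehicle arrays. The loading factors Cdt1 and Cdc6 differed by -0.21 and -0.15 at 10 µM and by 0.09 and -0.03 at 20 µM. Over the 6 licensing members the median was -0.03 at 10 µM and 0.02 at 20 µM.

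Within the MCM ring, whose 6 subunits work in equal numbers, Mcm2 stood apart from the other subunits on the 10 µM array. Mcm2 stood at 9.40 at 10 µM and 8.56 at 20 µM, against 8.29 and 8.63 in the vehicle arrays. The 10 µM value was 1.92-fold above the vehicle mean (0.94 ± 0.19, SE of the fit of 3 groups) and above both vehicle arrays, which themselves differed by 0.35, and the 20 µM value lay between them. Mcm7 stood at 8.47 at 10 µM and 9.05 at 20 µM, against 9.11 and 9.35 in the vehicle arrays. It was 1.69-fold lower at 10 µM (-0.76 ± 0.17) and below both vehicle arrays at either dose. Mcm5 stood at 8.67 at 10 µM and 9.55 at 20 µM, against 9.16 and 9.53 in the vehicle arrays. It was 1.60-fold lower at 10 µM (-0.67 ± 0.20), while its 20 µM value lay just above both vehicle arrays. Mcm6 stood at 9.23 at 10 µM and 9.67 at 20 µM, against 9.50 and 9.67 in the vehicle arrays. Mcm3 stood at 8.99 and 9.11 at the doses, against 9.24 and 9.30 in the vehicle arrays. Mcm4 stood at 8.77 and 8.92 at the doses, against 8.99 and 9.03 in the vehicle arrays. All 5 subunits other than Mcm2 were thus below both vehicle arrays at 10 µM, with differences from -0.24 to -0.76, and 3 of them, Mcm3, Mcm4 and Mcm7, were below both at 20 µM as well. The difference of Mcm2 exceeded the mean difference of Mcm3 to Mcm7 by 1.40 at 10 µM and by 0.13 at 20 µM, and between the vehicle arrays by 0.17. That contrast between subunits was not tested, and Mcm2 was measured by a single probe set.

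**Figure D2:**
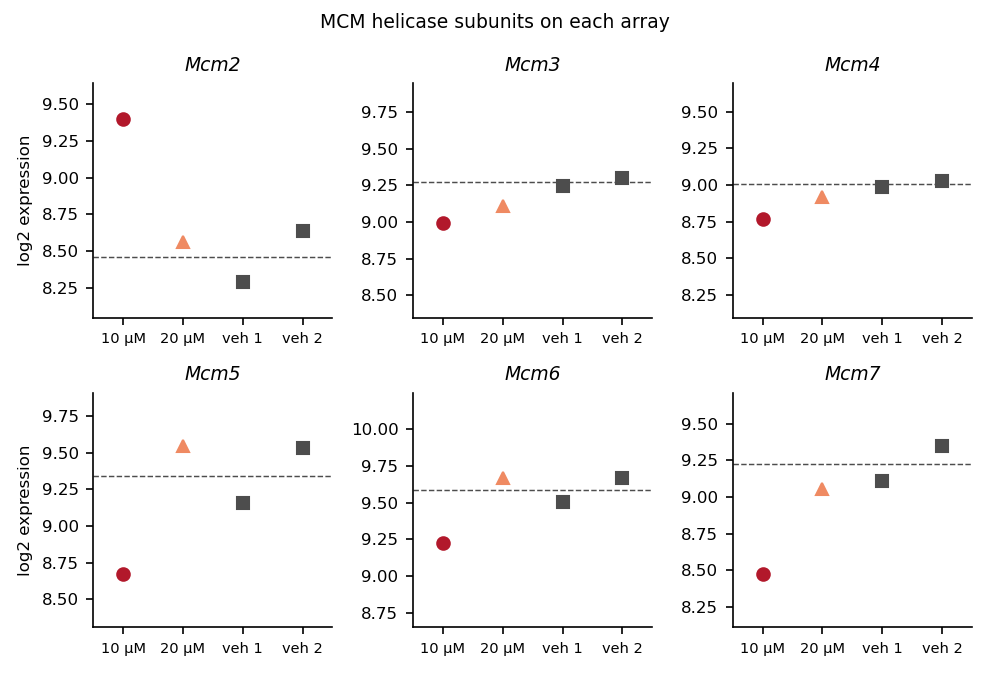
Log2 expression (y axis, the same span in each panel) of the 6 MCM subunits on the 10 µM (red circle), 20 µM (orange triangle) and 2 vehicle arrays (grey squares), with the vehicle mean as a dashed line. At 10 µM Mcm2 stands at 9.40, above its vehicle arrays at 8.29 and 8.63, and the other 5 subunits stand below theirs.

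The factors that activate the ring were lower or near vehicle at 10 µM, with 5 of 6 below the vehicle mean and a median of -0.17. Gins3, a subunit of the GINS complex, stood at 8.58 at 10 µM and 9.34 at 20 µM, against 9.16 and 9.13 in the vehicle arrays. It was 1.47-fold lower than the vehicle mean at 10 µM and above both vehicle arrays at 20 µM. Gins1 stood at 6.29 at 10 µM and 6.06 at 20 µM, against 6.51 and 6.65 in the vehicle arrays. Of all members it lay furthest below vehicle at 20 µM, 1.44-fold, and its mean difference over both doses was -0.41 ± 0.15 (limma SE, 2 arrays a group, adjusted p = 0.792). Gins4 stood at 9.06 at 10 µM and 8.83 at 20 µM, against 8.90 and 8.96 in the vehicle arrays. Gins2 stood at 8.22 and 8.30 at the doses, inside the vehicle span of 8.20 to 8.34. The 4 GINS subunits thus spread over 0.69 at 10 µM and 0.72 at 20 µM on the log2 scale, beside 0.17 between the vehicle arrays. Cdc45, the partner of GINS in the helicase, stood at 7.56 at 10 µM and 7.86 at 20 µM, against 7.97 and 8.10 in the vehicle arrays, below both at either dose. Mcm10, an initiation factor outside the ring, stayed inside its vehicle span at both doses.

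Among the 8 polymerase and primase genes 7 were below the vehicle mean at 10 µM, with a median of -0.18. Pola2, the accessory subunit of polymerase alpha, stood at 8.18 at 10 µM and 8.90 at 20 µM, against 8.89 and 8.95 in the vehicle arrays. It was 1.67-fold lower at 10 µM (-0.74 ± 0.14, SE of the fit of 3 groups) and inside the vehicle span at 20 µM. Pola1, the catalytic subunit of the same enzyme, stood at 7.84 at 10 µM and 7.50 at 20 µM, against 7.49 and 7.67 in the vehicle arrays. These subunits of one complex lay on opposite sides of vehicle at 10 µM. The primase subunits Prim1 and Prim2 differed by -0.20 and -0.16 at 10 µM and by 0.06 and 0.09 at 20 µM. Pole2, an accessory subunit of polymerase epsilon, differed by -0.37 at 10 µM and -0.06 at 20 µM, while its catalytic partner Pole differed by -0.11 and -0.07. The second probe set of Pole, whose mean of 4.44 is below the median of all values, differed by -0.40 at 10 µM, and averaging both gave -0.255. Outside the member list, the epsilon subunits Pole3 and Pole4 were above both vehicle arrays at 10 µM, by 0.40 and 0.42 over the mean. The further delta subunits Pold3 and Pold4 differed by -0.05 and 0.07. The delta subunits Pold1 and Pold2 differed by -0.19 and -0.09 at 10 µM and by 0.13 and -0.05 at 20 µM. Pold2 differed by 0.39 between the vehicle arrays. At 20 µM all 8 members lay within 0.13 of the vehicle mean.

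The clamp and its loader showed no shared direction. Pcna, the sliding clamp, stood at 9.94 at 10 µM and 10.42 at 20 µM, against 10.12 and 10.41 in the vehicle arrays. It was below both vehicle arrays at 10 µM, 1.25-fold under their mean, and level with vehicle 2 at 20 µM. Of the 4 measured loader subunits, Rfc2 stood at 8.09 at 10 µM and 7.94 at 20 µM, against 7.72 and 7.91 in the vehicle arrays. Rfc3 stood at 6.34 at 10 µM and 6.55 at 20 µM, against 6.19 and 6.34 in the vehicle arrays. Rfc1, the large subunit, stood at 8.38 and 8.56 at the doses, against 8.47 and 8.60 in the vehicle arrays. Rfc5 stood at 7.75 and 7.82 at the doses, against 7.79 and 7.95 in the vehicle arrays. Rfc2 and Rfc3 were thus higher than the vehicle mean and Rfc1 and Rfc5 lower at 10 µM, with differences between -0.16 and 0.28, and only Rfc2 was above both vehicle arrays at both doses.

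Of the 5 genes that handle single strands and Okazaki fragments, 4 were lower at 10 µM. The ligase Lig1, which seals Okazaki fragments, stood at 7.23 at 10 µM and 7.71 at 20 µM, against 7.67 and 8.06 in the vehicle arrays. Its difference at 10 µM was 1.55-fold downward (-0.63 ± 0.20), beside 0.40 between the vehicle arrays. Fen1, the flap nuclease that trims the fragments, differed by -0.37 at 10 µM and -0.06 at 20 µM, and its second probe set by -0.19 and -0.05. Rpa3, the smallest subunit of the single-strand binding protein RPA, stood at 9.28 at 10 µM and 8.55 at 20 µM, against 9.07 and 8.88 in the vehicle arrays. It was above both vehicle arrays at 10 µM and below both at 20 µM. Its second probe set differed by 0.72 at 10 µM and -0.07 at 20 µM, and at 20 µM it stood at 7.45, between its vehicle values of 7.64 and 7.39. The place of Rpa3 below both vehicle arrays at 20 µM thus rests on the chosen probe set. The other RPA subunits, Rpa1 and Rpa2, differed by -0.12 and -0.18 at 10 µM and by 0.09 and -0.08 at 20 µM. For the genes of new chromatin, Uhrf1, which directs maintenance methylation to new strands, stood at 8.12 at 10 µM and 8.64 at 20 µM, against 8.61 and 8.61 in the vehicle arrays. Chaf1a, the large subunit of the histone chaperone CAF-1, stood at 6.46 at 10 µM and 6.89 at 20 µM, against 6.90 and 6.92 in the vehicle arrays. They were 1.40-fold and 1.36-fold lower at 10 µM, beside vehicle differences of -0.01 and 0.02, and the second CAF-1 subunit Chaf1b differed by -0.13.

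The nucleotide enzymes were split between ribonucleotide reductase and thymidylate synthase. Rrm1, the large subunit of the reductase, stood at 9.76 at 10 µM and 10.30 at 20 µM, against 10.14 and 10.32 in the vehicle arrays. Rrm2, its small subunit made in S phase, stood at 6.38 at 10 µM and 6.86 at 20 µM, against 6.77 and 7.07 in the vehicle arrays. Both subunits were below both vehicle arrays at 10 µM, by 1.39-fold and 1.46-fold of the mean, and inside the vehicle span at 20 µM. The second probe set of Rrm2, whose mean of 3.21 is below the median of all values, differed by 0.06 at 10 µM, and averaging both gave -0.25. Tyms, which makes thymidylate from deoxyuridylate, stood at 7.65 at 10 µM and 6.83 at 20 µM, against 7.21 and 7.26 in the vehicle arrays. At 10 µM it was higher, by 1.34-fold, and at 20 µM lower, by 1.33-fold, outside the vehicle span each time, and had the smallest adjusted p of the members between the doses (limma, fit of 3 groups, 0.126). Dut, which removes dUTP and makes the substrate of Tyms, stood at 8.20 at 10 µM and 7.90 at 20 µM, against 8.11 and 8.31 in the vehicle arrays. Its differences were -0.01 and -0.31. The second probe set of Dut, whose mean of 4.15 is below the median of all values, differed by 0.25 and 0.09. Averaging both probe sets gave 0.12 at 10 µM. Tk1, the salvage thymidine kinase, stood at 8.20 at 10 µM and 8.27 at 20 µM, against 8.18 and 8.60 in the vehicle arrays, so both doses lay inside a wide vehicle span. Of the G1/S regulators, cyclin E1 (Ccne1) and the transcription factor E2f1 were above both vehicle arrays at 10 µM, by 0.155 and 0.107 over the mean, and differed by 0.01 and 0.02 at 20 µM.

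**Figure D3:**
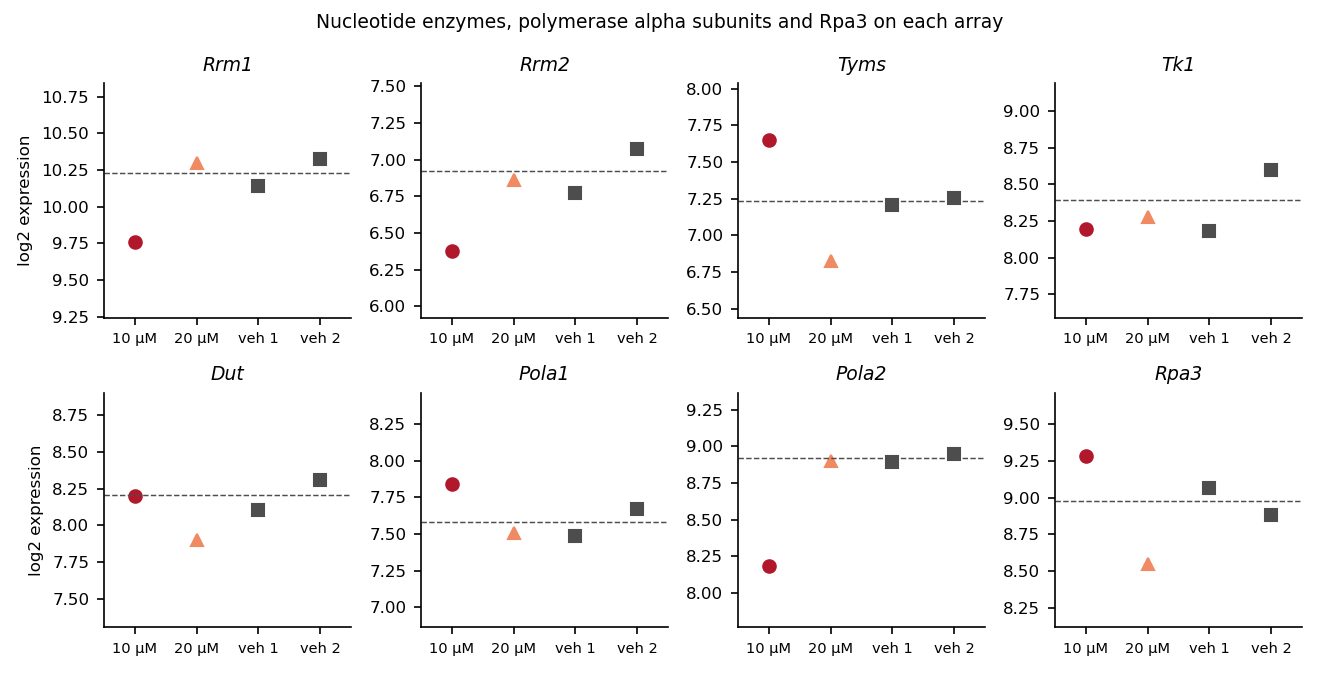
Log2 expression (y axis, the same span in each panel) of 5 nucleotide enzymes, both named polymerase alpha subunits and Rpa3 on the 10 µM (red circle), 20 µM (orange triangle) and 2 vehicle arrays (grey squares), with the vehicle mean as a dashed line. Rrm1, Rrm2 and Pola2 lie below both vehicle arrays at 10 µM and not at 20 µM, while Tyms and Rpa3 (its chosen probe set) lie above both at 10 µM and below both at 20 µM.

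The doses were also compared directly, which needs no vehicle array. The 20 µM array was higher than the 10 µM array for 33 of 46 members (71.7%), beside 49.9% of all genes, with a median difference of 0.14. Between the doses 6 members (13.0%) differed by 1.5-fold or more, beside 7.58% of all genes. Mcm5 (0.88), Gins3 (0.76) and Pola2 (0.71) were higher at 20 µM, and Mcm2 (-0.84), Tyms (-0.82) and Rpa3 (-0.74) were lower. Mcm7 (0.581) lay just inside that limit of 0.585. A member below both vehicle arrays at 10 µM and above both at 20 µM was found 8 times (17.4%, beside 8.52% of all genes), and the reverse 4 times (8.70%, beside 10.4%). The reverse set was Orc6, Gins4, Rpa3 (by its chosen probe set) and Tyms. Both doses lay below both vehicle arrays for 9 members, beside 18.2% of all genes, and above both for 2, Orc1 and Rfc2, beside 19.2%.

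Of the other genes of the pathway, limma called 0 with both doses as 1 group. The spread within nimodipine then holds the dose difference, so this grouping can miss a difference seen at 10 µM alone. At an unadjusted p under 0.05 there were 1 of the 38 further replication factors, 2 of the 27 further nucleotide enzymes and 0 of the 14 checkpoint genes. There were also 2 of the 20 genes in the E2F and RB family list and 3 of the 25 measured G2/M and mitosis genes, beside 5.37% of all genes. Of 38 further replication factors, 21 were lower and 17 higher at 10 µM, with a median of -0.02. Recql4, a helicase needed to start replication, stood at 7.24 at 10 µM and 6.20 at 20 µM, against 5.90 and 6.27 in the vehicle arrays, and was the only gene of that list past 1 at 10 µM. Timeless, of the fork protection complex, differed by -0.71 and 0.26, and the PCNA partner Pclaf by -0.68 and 0.09. Of 27 further nucleotide enzymes 18 were lower at 10 µM, with a median of -0.05. They were led by Samhd1 (-0.92 at 10 µM and -0.25 at 20 µM), which degrades deoxynucleotides, Dck (-0.74 and -0.36), the deoxycytidine kinase, and Adss (-0.62 and 0.08), of AMP synthesis. Of 14 S-phase checkpoint genes 10 were lower at 10 µM, with a median of -0.14, and the largest differences were those of Wee1 (-0.63), Atr (-0.43) and Dtl (-0.40).

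Of 20 genes in the E2F and RB family list, 15 were lower at 10 µM, with a median of -0.25. At 20 µM 18 were lower, with a median of -0.19. That list also holds genes of neither family, Ccna2 among them. Ccna2, cyclin A of S and G2 phase, differed by -1.13 at 10 µM and -0.12 at 20 µM, and the repressor E2f8 by -0.84 and -0.07. The pocket protein Rbl1 differed by -0.86 at 10 µM. Of 25 measured G2/M and mitosis genes 24 were lower at 10 µM, 16 of them by 1 or more, with a median of -1.07, beside 0 of 46 replication members past that size and a median of -0.17. Of all genes, 1.06% were lower by 1 or more at 10 µM. Among genes with a mean of at least 5.04, 2.61% differed by that much in either direction. These lists were chosen with earlier results of these data known. Mad2l1, a spindle checkpoint protein, was the exception in the mitotic list, 0.77 above vehicle. At 20 µM the mitotic median was -0.11. The difference between the lists was not tested.

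**Figure D4:**
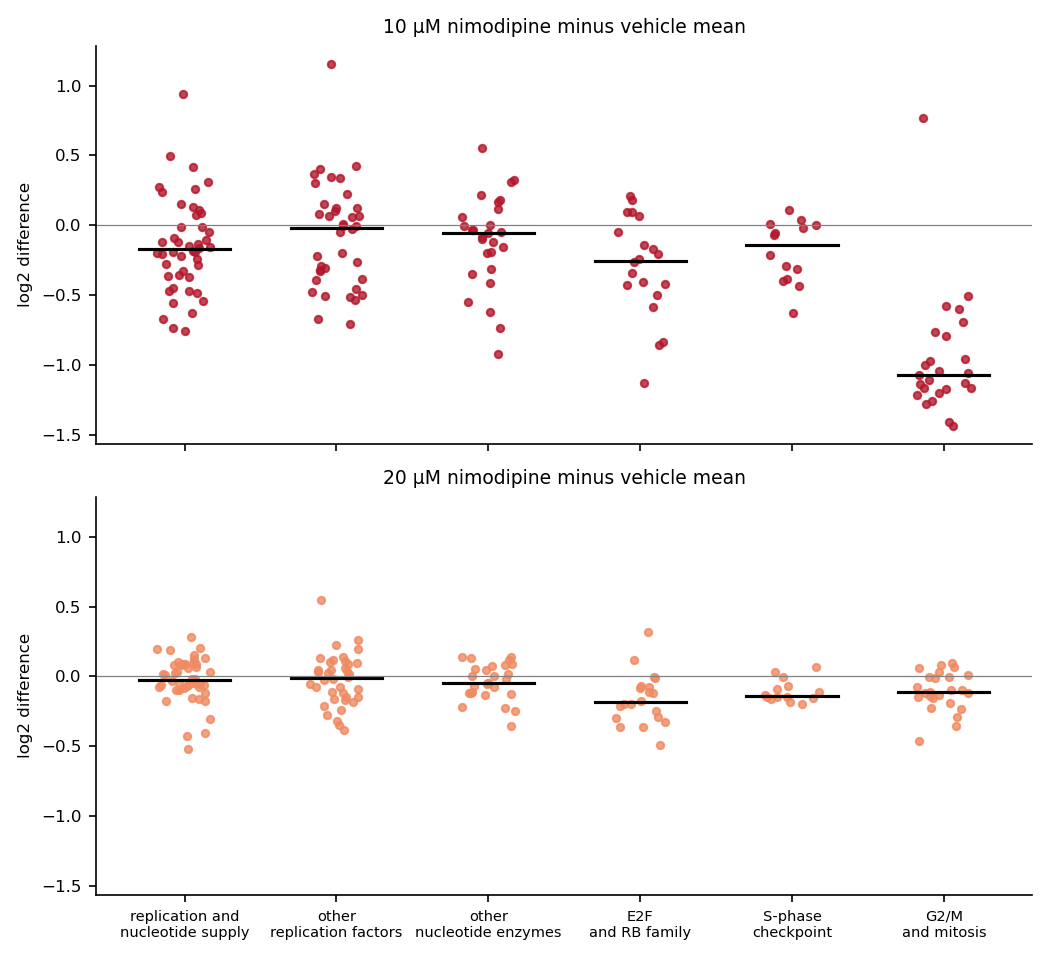
Log2 difference from the vehicle mean (y axis) at 10 µM (upper panel) and 20 µM nimodipine (lower panel) for the 46 members and 5 other lists (x axis); each point is a gene and black lines are medians. At 10 µM the median is -0.17 for the members and -1.07 for G2/M and mitosis genes, and at 20 µM -0.03 and -0.11.

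Some members share a start region with a gene on the opposite strand. Neighbours could be sought only for the 39 of 48 genes with a matched promoter, which leaves out Mcm4. Within 1 kb of a member's start, 10 such neighbours were found, all measured, and 7 had the sign of their member at 10 µM. That count was not tested, and 47.6% of all genes were lower at 10 µM. Ap4m1, which starts 138 bases from Mcm7, stood at 8.20 at 10 µM and 8.63 at 20 µM, against 8.55 and 8.66 in the vehicle arrays. It differed by -0.40 at 10 µM, beside -0.76 for Mcm7. Tmem258, 191 bases from Fen1, differed by -0.40 at 10 µM, beside -0.37 for Fen1. Afmid, 95 bases from Tk1, differed by -0.19, the value of Tk1. In the other direction, Ufd1 was 0.20 above vehicle beside -0.48 for Cdc45, and the predicted genes Gm15834 and Gm15728 differed by -0.09 and 0.73 beside 0.49 for Orc2 and -0.12 for Rfc5. The other 4 neighbours, Prpf38a, Smyd4, Umad1 and Zswim9, differed by between -0.10 and 0.11. Mir106b, a microRNA gene inside Mcm7, stood at 4.86 and 4.87 at the doses, against 4.76 and 4.75 in the vehicle arrays, all below the median of all values. The probe sets of the microRNA genes Mir25 and Mir93, which lie there too, also carry the symbol Mcm7 and were not used.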

How the data were processed

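RNA from N9 cells was measured on Affymetrix arrays. The authors deposited log2 values for 41345 probe sets, made by RMA in Expression Console 1.2.1.20 (Affymetrix), per the submitters' processing notes; RMA corrects background, sets arrays to a common distribution and summarises probes, which hides any shift common to most genes. Arrays carry no count depth, and their number limits the precision. The array annotation gave 1 symbol to 23521 probe sets and several to 1814, and did not list 16010; the probe set with the highest mean stood for each of 22180 genes. limma 3.58.1 (R 4.3.3, lmFit and eBayes, Benjamini-Hochberg over 22180 genes, threshold 0.05) compared nimodipine with vehicle, 2 arrays against 2, so the spread within nimodipine holds the dose difference and p-values cover only array-to-array spread, possibly technical. Single doses were described by their difference from the vehicle mean, past 1 on the log2 scale, or tested in a fit of 3 groups as an alternative. The other alternatives were scaling, dim probe sets, probe set choice, variance model, thresholds, dose as a number and leaving out an array. The text names all members by role and up to 3 genes of each other list by absolute difference at 10 µM. It also names genes that start within 1 kb on the opposite strand, and microRNA genes inside Mcm7. Mad2l1 and the further subunits Orc3, Orc4, Orc5, Pold3, Pold4, Pole3 and Pole4 were named after their values were seen. The members and lists were chosen with earlier results of these data known. The list symbols And1 and Cdt2 are older names of Wdhd1 and Dtl, and were dropped. Scripts were tested on simulated data.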

Additional observations from a re-analysis of the deposited data

How the results depend on the processing

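No paired analysis was possible because the nimodipine labels carry no replicate number. At a limit of 1.5-fold in place of 2-fold, 5 members in place of 0 lay past it at 10 µM and 6 in place of 0 between the doses. Leaving out a vehicle array gave 0 to 1 members past 2-fold at 10 µM, the 1 being Mcm2 against vehicle 1. The count of members that limma called was 0 under each alternative run. The median difference at 10 µM was -0.21 with equal array medians, -0.14 with loess and -0.19 with averaged probe sets. At 20 µM loess gave 0.01, with 22 members lower and 24 higher. Of 46 members, the sign turned at 10 µM for 2 under loess (Mcm10 and Dut), 0 with equal medians, 1 with averaged probe sets, 1 without vehicle 1 and 5 without vehicle 2. At 20 µM it turned for 3, 3, 0, 9 and 12 under the same settings. Each dose rests on 1 array, and both doses are set against the same vehicle arrays.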
